A study of Homo sapiens with 2 samples.

Results

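The genes described here are 10 core autophagy and mitophagy genes of 61806 Ensembl genes counted in HEL cells. They were chosen by gene name and are *ULK1*, *BECN1*, *WIPI1*, *ATG5*, *MAP1LC3B*, *GABARAP*, *GABARAPL1*, *GABARAPL2*, *SQSTM1* and *BNIP3L*. All 10 were found by symbol among the 13924 genes with deposited FPKM values (fragments per kilobase of transcript, scaled to library size), and all 10 were among the 18123 genes that reached 10 counts in either library. HEL is a human erythroleukemia cell line, labelled wild type. In 1 library the cells had been treated for 24 h with 1 µM L1, a derivative of 3,3′-diindolylmethane, and in the other with 0.5% DMSO, and whether the L1 culture held the same DMSO is not stated in the labels. Each condition had 1 library of a single cell line, so the spread between cultures is unknown and every difference below lacks a replicate check and a test.

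Macroautophagy begins when the ULK1 kinase complex and the class III PI3-kinase complex around Beclin 1 start a cup-shaped membrane, to which WIPI proteins bind through PI3P. A ubiquitin-like conjugation system that contains ATG5 then attaches proteins of the ATG8 family, the LC3 and GABARAP proteins, to the growing membrane. Receptors such as p62 (SQSTM1) and, on mitochondria, NIX (BNIP3L) tie cargo to the ATG8 proteins before the closed autophagosome fuses with the lysosome. In erythroid cells this route is known for the removal of mitochondria through NIX during maturation. Levels of mRNA are measured here, and neither the lipidated form of LC3 nor the flux through the pathway.

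The libraries held 32556872 counts for DMSO and 27135647 for L1, and edgeR's TMM scaling set the DMSO library at 1.16 times the size of the L1 library. Erythroid identity was seen in both libraries, with all 7 erythroid markers examined above 1 FPKM, among them GATA1 and the gamma globin genes. Of the 3 megakaryocytic markers, *ITGA2B* and *GP9* were above 1 FPKM and *PF4* was listed at 0 in both libraries. The 3 T lymphoid markers together had 2 counts under DMSO against 5 under L1, while the B lymphoid marker *CD79A* had 113 and 60 counts.

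In the L1 library the 10 genes did not move as a block, and the ATG8 family held both the highest and the lowest ratio. *GABARAPL1* was 2.12-fold higher than in DMSO and *MAP1LC3B* 1.56-fold higher, whereas *GABARAP* was 1.22-fold lower. *ATG5*, *BNIP3L* and *GABARAPL2* were between 1.26-fold and 1.35-fold higher. *BECN1*, *SQSTM1* and *WIPI1* differed by 1.12-fold or less, and *ULK1* was 1.14-fold lower. In these bulk libraries, a change in the share of cells that carry an mRNA and a change in its amount per cell cannot be told apart.

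A difference of 1.5-fold or more was reached upward in L1 by 2 of the 10 genes, *GABARAPL1* and *MAP1LC3B*, and downward by 0. For *MAP1LC3B* the lower limit of the interval, 0.56, lay under 1.5-fold. Among the 18123 genes the shares were 14.6% upward and 12.0% downward, with genes at 0 in the other library taken as past the fold. At 2-fold, 1 of the 10 genes was higher and 0 were lower, beside 8.02% and 5.52% of all genes. Genes with few counts make up much of these shares. Among the 12365 genes that reached 100 counts, which include all 10, 7.48% were past 1.5-fold upward and 8.31% downward, and 3.17% and 2.94% were past 2-fold. With 10 genes, a count of 1 or 2 cannot be told from these background shares. The median log2 ratio of L1 over DMSO was 0.25 over the 10 genes, and -0.028 over the 12365 genes. Ratios are given without a prior count, and each 95% interval is the exact Clopper-Pearson interval of the split of a gene's counts between both libraries. It covers counting error only. With TMM scaling the interval lay above 0 for 7 of the 10 genes, below 0 for *GABARAP* and *ULK1*, and for *WIPI1* it included 0. The interval shifts with the scaling. The lower limits of *SQSTM1* (0.017) and *WIPI1* (-0.038) lie so near 0 that their side of 0 depends on it. Of the 12365 genes, 3768 had an interval above 0, 4534 below 0 and 4063 one that included 0. An interval that excludes 0 was thus common.

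**Figure D1:**
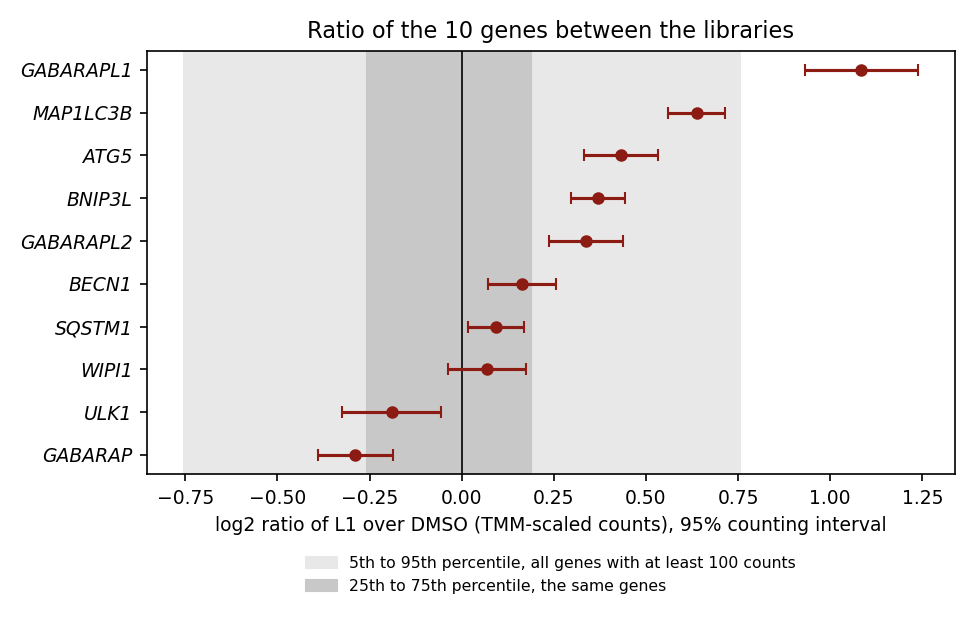
Each point is the log2 ratio of L1 over DMSO of 1 gene from TMM-scaled counts, with its 95% counting interval, over grey bands for the 5th to 95th and the 25th to 75th percentile of the 12365 genes with at least 100 counts. *GABARAPL1* at 1.08 lies beyond the 95th percentile of 0.75, and *MAP1LC3B* at 0.64 lies inside it.

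The 4 ATG8 genes among the 10 encode small ubiquitin-like proteins that ATG4 proteases trim to a glycine near the C-terminus, by which they are joined to lipid. The ends of their coding sequences (principal transcripts in GENCODE release 29, written 5′ to 3′ up to the stop codon) are shown because they carry this shared feature and, at the same time, show how far the genes differ in bases. The capitals mark the last glycine codon.
MAP1LC3B: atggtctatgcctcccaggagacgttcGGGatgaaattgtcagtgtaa
GABARAP: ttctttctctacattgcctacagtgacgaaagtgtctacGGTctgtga
GABARAPL1: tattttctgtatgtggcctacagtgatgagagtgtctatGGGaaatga
GABARAPL2: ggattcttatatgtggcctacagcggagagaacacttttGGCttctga
In *MAP1LC3B* 5 codons follow the glycine codon before the stop, and in the 3 GABARAP genes 1 codon follows it. The coding sequences of *GABARAP* and *GABARAPL1* were identical at 76.8% of aligned bases, the closest pair of the 4, and *MAP1LC3B* shared between 55.6% and 58.7% of bases with the others. None of the 6 pairs shared a word of 31 bases within the coding sequence, so reads of that length without mismatches would not move between these 4 genes.

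*GABARAPL1* (ENSG00000139112, chromosome 12 from 10212458 to 10223130 on GRCh38) had 538 counts under DMSO against 984 under L1. Its deposited FPKM was 4.18 under DMSO against 8.85 under L1. The log2 ratio was 1.08 (95% interval 0.93 to 1.24), and the interval includes values under 2-fold. An annotated antisense gene that overlaps 329 of its exon bases was listed at 0 counts in both libraries.

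*MAP1LC3B*, which encodes LC3B, the protein most used to mark autophagosomes (ENSG00000140941, chromosome 16 from 87383995 to 87404779), had 2346 counts under DMSO against 3148 under L1. Its FPKM was 14.7 under DMSO against 22.8 under L1, and the log2 ratio was 0.64 (95% interval 0.56 to 0.72). The near copy *MAP1LC3B2*, which holds 5.92% of the 31-base words of *MAP1LC3B*, had only 69 counts under DMSO against 89 under L1. Its counts were thus small beside the difference of *MAP1LC3B* between the libraries. Adding *FBXO31*, which shares 150 exon bases on the opposite strand, gave 0.49 (0.42 to 0.56), under 1.5-fold. *FBXO31*, with a log2 ratio of -0.0046, held 871 of the 3217 summed counts in DMSO and 749 of 3897 in L1. The sum is thus not the ratio of *MAP1LC3B* itself.

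*GABARAPL2*, also known as GATE-16 (ENSG00000034713, chromosome 16 from 75566351 to 75577881), had 1570 counts under DMSO against 1711 under L1, with FPKM of 16.4 and 20.7. The log2 ratio was 0.34 (95% interval 0.24 to 0.44).

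*GABARAP* (ENSG00000170296, chromosome 17 from 7240014 to 7242770) went the other way, from 1887 counts in DMSO to 1333 in L1. Its FPKM was 30.4 under DMSO against 24.9 under L1, and the log2 ratio was -0.29 (95% interval -0.39 to -0.19). Of its 31-base words, 52.3% also occur in another annotated gene, mostly in *AC120057.2* on the same strand, listed at 0 counts in both libraries, and in *AC120057.3* on the opposite strand, with 28 counts under DMSO against 24 under L1. Summing all overlapping genes left the log2 ratio at -0.28.

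Differences between ATG8 genes within the same pair of libraries do not depend on the scaling. The log2 ratio of *GABARAPL1* exceeded that of *GABARAP* by 1.37, with an exact conditional 95% interval from 1.19 to 1.56. *MAP1LC3B* exceeded *GABARAP* by 0.93 (0.80 to 1.05) and *GABARAPL2* exceeded it by 0.63 (0.48 to 0.77). All 6 pairs had an interval that excluded 0, and the smallest difference was that of *MAP1LC3B* over *GABARAPL2*, 0.30 (0.17 to 0.43). The 4 genes thus stood in the order *GABARAPL1*, *MAP1LC3B*, *GABARAPL2*, *GABARAP* by their ratio, each apart from the next by more than counting error.

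The make-up of the family shifted accordingly. *GABARAP* accounted for 45.6% of the summed FPKM of the ATG8 genes in DMSO and for 31.5% in L1. *MAP1LC3B* went from 21.9% to 28.9%, and *GABARAPL1* from 6.25% to 11.2%. The share of *GABARAPL2*, 24.6% in DMSO and 26.2% in L1, moved least among the 4. Per read rather than per length, *GABARAP* held 29.4% of the ATG8 counts in DMSO (exact 95% interval 28.3% to 30.6%) and 18.3% in L1 (17.5% to 19.3%). Summed over the family, counts came to 6410 under DMSO against 7265 under L1 (log2 ratio 0.39, 95% interval 0.35 to 0.44), and the summed FPKM gave 0.24, since the short *GABARAP* weighs more per length. *MAP1LC3A* and *MAP1LC3C* were listed at 0 counts in both libraries, which allows up to 3 counts in each.

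**Figure D2:**
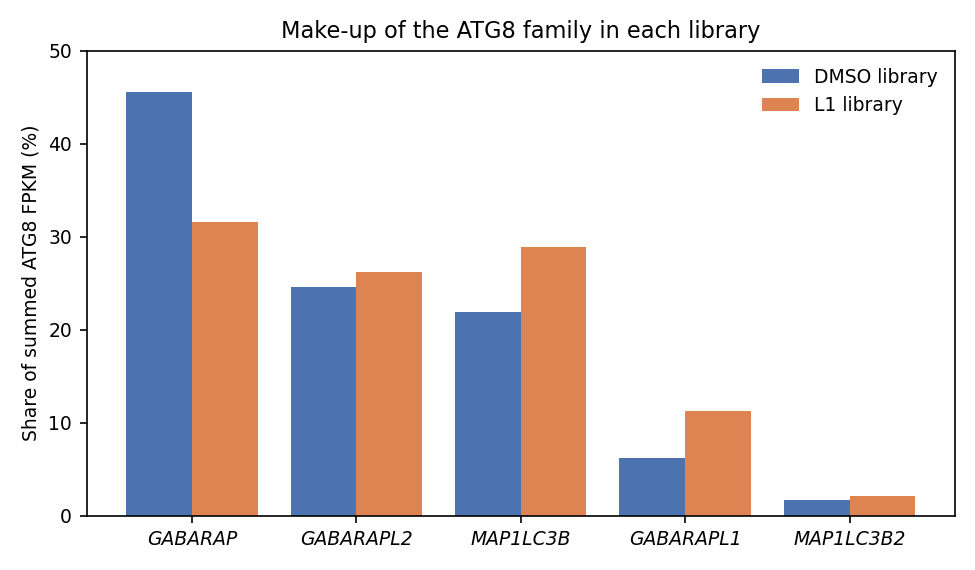
Bars give the share of each gene in the summed FPKM of the 5 ATG8 genes with a deposited FPKM, in percent, for the DMSO and the L1 library. *GABARAP* has 45.6% in DMSO and 31.5% in L1, while *MAP1LC3B* and *GABARAPL1* take larger shares in L1.

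The sequences before the annotated starts of *GABARAPL1*, *MAP1LC3B* and *GABARAP* are printed because these genes had the highest, the second highest and the lowest ratio of the 4. They are the 250 bases before the start in the RefSeq table on GRCh38.p14, 5′ to 3′ on the strand of the gene, at chr12:10212627-10212876 for *GABARAPL1*, chr16:87392086-87392335 for *MAP1LC3B* and chr17:7242450-7242699 (minus strand) for *GABARAP*. All 3 windows lie inside the wider gene spans of GENCODE given above, which hold transcripts with earlier starts. Capitals mark motif matches.
GABARAPL1: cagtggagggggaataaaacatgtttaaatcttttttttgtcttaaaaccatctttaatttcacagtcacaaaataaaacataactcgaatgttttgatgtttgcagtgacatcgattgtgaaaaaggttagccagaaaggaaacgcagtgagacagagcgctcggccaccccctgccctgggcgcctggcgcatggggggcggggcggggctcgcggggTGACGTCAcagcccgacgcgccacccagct
MAP1LC3B: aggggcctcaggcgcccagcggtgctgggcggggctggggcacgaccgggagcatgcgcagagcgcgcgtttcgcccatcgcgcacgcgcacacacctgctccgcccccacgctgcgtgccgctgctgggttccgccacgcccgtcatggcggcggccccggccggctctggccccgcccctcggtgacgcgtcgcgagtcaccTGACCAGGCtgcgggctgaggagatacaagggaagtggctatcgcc
GABARAP: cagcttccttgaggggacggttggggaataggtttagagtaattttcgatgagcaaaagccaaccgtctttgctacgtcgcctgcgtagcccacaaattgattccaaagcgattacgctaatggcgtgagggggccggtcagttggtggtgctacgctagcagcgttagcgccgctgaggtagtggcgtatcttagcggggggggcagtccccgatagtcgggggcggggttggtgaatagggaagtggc
The motifs searched on both strands were the E-box CACGTG and the longer form TCACGTGA that contains it (bound by TFEB and TFE3), the antioxidant response element TGACNNNGC, the ATF4 and CHOP element TGATGNAA, the FOXO element TGTTTAC, the GATA element AGATAA and the cyclic AMP response element TGACGTCA, the last added after the sequence of *GABARAPL1* had been read. The table held such a window for 9 of the 10 genes, and those of *ATG5* (from 106316267 to 106316516) and *BECN1* (from 42823880 to 42824129) also lie inside the gene, away from its outermost start. *GABARAPL1* had TGACGTCA, which begins 30 bases before the start and occurs in 1.63% of all 34943 windows of this length. *MAP1LC3B* had TGACNNNGC, which begins 46 bases before the start and occurs in 10.9% of all. The other searched motifs had no match in these 9 windows, while CACGTG occurs in 6.32% of all. A match describes letters and shows no binding, and sequence before other starts was not searched.

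Upstream in the pathway, *ULK1* (ENSG00000177169, chromosome 12 from 131894651 to 131923167), the kinase that starts autophagy, had 1038 counts under DMSO against 785 under L1. Its FPKM was 4.29 under DMSO against 3.76 under L1, a log2 ratio of -0.19 (95% interval -0.33 to -0.055). It was the only one of the 10 besides *GABARAP* that was lower in L1 beyond counting error. The related kinase *ULK2* was listed at 0 counts in both libraries. Of the other subunits of the complex, the scaffold *RB1CC1* (FIP200) had 2042 counts under DMSO against 2254 under L1 (log2 ratio 0.36, 0.27 to 0.44), and *ATG13* had 2499 and 2034 (-0.084, -0.17 to 0.0011).

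*BECN1* (ENSG00000126581, chromosome 17 from 42810134 to 42833350) encodes Beclin 1, the regulatory subunit of the class III PI3-kinase complexes. It had 1974 counts under DMSO against 1907 under L1, with FPKM of 9.68 and 10.8, and a log2 ratio of 0.16 (95% interval 0.072 to 0.25). Its exons share 300 bases with *PSME3* on the opposite strand, a proteasome activator gene that had 2191 counts under DMSO against 6641 under L1 (log2 ratio 1.81). Whether the counting used strand is not given in the sources used here. Summing *BECN1* with the genes that overlap it on either strand gave 1.24 (1.18 to 1.29), which is past 2-fold. *PSME3* held 6641 of the 8642 summed counts in L1, so this value mostly describes *PSME3*. How reads from the 300 shared bases were counted is unknown. The 9 genes of the PI3-kinase list lay close together, from -0.046 for *AMBRA1* to 0.16 for *BECN1*, which had the highest ratio of them. *SH3GLB1* was next at 0.099 (0.039 to 0.16), and the catalytic subunit *PIK3C3* had 739 and 643 counts, a log2 ratio of 0.012.

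*WIPI1* (ENSG00000070540, chromosome 17 from 68420948 to 68457513), a PI3P-binding protein of the early membrane, had 1536 counts under DMSO against 1389 under L1. Its FPKM was 14.2 under DMSO against 14.9 under L1, and the log2 ratio was 0.068 (95% interval -0.038 to 0.17). A difference beyond 1.13-fold either way lay outside this interval. The related *WIPI2* had a log2 ratio of 0.0014, and the difference between the 2 genes, 0.067 (-0.076 to 0.21), was within counting error. In the same list the lipid transfer gene *ATG2A* was highest at 0.35 (0.22 to 0.49) and *VMP1* lowest at -0.28 (-0.37 to -0.20). The latter shares 162 exon bases with *PTRH2* on the opposite strand. The sum with overlapping genes on either strand had a log2 ratio of 0.011 (-0.052 to 0.073). *PTRH2*, with a log2 ratio of 0.32, held 1957 of the 4454 summed counts in DMSO and 2101 of 3871 in L1. This sum is thus not the ratio of *VMP1* itself.

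*ATG5* (ENSG00000057663, chromosome 6 from 106045423 to 106325791), which is joined to ATG12 and directs the lipidation of ATG8 proteins, had 1524 counts under DMSO against 1774 under L1. Its FPKM was 8.48 under DMSO against 11.4 under L1, and its log2 ratio of 0.43 (95% interval 0.33 to 0.53) was the highest of the 11 conjugation genes. It shares no 31-base word and no exon base with any other annotated gene. Next to it stood the E2-like enzyme *ATG3* at 0.30 (0.20 to 0.41). *ATG16L2* was lowest and lay further from 0 than *ATG5*, from 1239 to 732 counts (-0.55, -0.68 to -0.41).

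*SQSTM1* (ENSG00000161011, chromosome 5 from 179806398 to 179838078), the ubiquitin-binding receptor p62 that is itself degraded by autophagy, had 2887 counts under DMSO against 2657 under L1. Its FPKM was 12.1 under DMSO against 12.9 under L1, and the log2 ratio was 0.093 (95% interval 0.017 to 0.17). Exons of *MRNIP* overlap 1582 of its bases on the opposite strand, with 651 counts under DMSO against 595 under L1. Exons of *MGAT4B*, also on the opposite strand, share 105 bases with it, with 5946 and 4455 counts. The sum with both genes had a log2 ratio of -0.086. *MGAT4B*, with a ratio of -0.20, held 5946 of the 9484 summed counts in DMSO, so the sum does not give the direction of *SQSTM1*. How reads from the shared bases were counted is unknown. A pair of other receptors of its list lay furthest apart. *CALCOCO1* had 611 counts under DMSO against 935 under L1 (log2 ratio 0.83, 0.68 to 0.98), and *CALCOCO2* (NDP52) had 1984 and 1101 (-0.64, -0.74 to -0.53).

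*BNIP3L* (ENSG00000104765, chromosome 8 from 26382898 to 26505636) encodes NIX, the mitophagy receptor of maturing red cells. It had 2915 counts under DMSO against 3251 under L1, with FPKM of 22.1 and 28.6 and a log2 ratio of 0.37 (95% interval 0.30 to 0.44). Its relative *BNIP3* went from 993 to 729 counts (-0.23), and the difference between them was 0.60 (0.45 to 0.76). Of the 12 mitophagy genes, 6 had a ratio above 0 and 6 below. *PINK1*, the kinase that marks damaged mitochondria, was highest at 0.41 (0.18 to 0.65), with 1907 exon bases shared with *PINK1-AS* on the opposite strand, which had a log2 ratio of 0.66. *NIPSNAP1* was lowest, from 374 to 174 counts (-0.89, -1.16 to -0.63). It shares 158 exon bases with *THOC5* on the same strand, and the sum of both genes gave -0.42 (-0.53 to -0.32). *THOC5* held 1482 of the 1856 summed counts in DMSO and 1020 of 1194 in L1, so the sum mostly describes *THOC5*. By its own counts, *USP30* was next lowest at -0.43.

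By level per length, *GABARAP* stood first of the 10 in DMSO at 30.4 FPKM, followed by *BNIP3L* at 22.1 and *GABARAPL2* at 16.4. *MAP1LC3B* at 14.7 and *WIPI1* at 14.2 had overlapping counting intervals, as had *ULK1* at 4.29 and *GABARAPL1* at 4.18, the lowest pair. In the L1 library *BNIP3L* came first at 28.6. The counting intervals of *GABARAP* at 24.9 and *MAP1LC3B* at 22.8 overlapped only near 23.6, and those of *ATG5* at 11.4 and *BECN1* at 10.8 also overlapped. An overlap of separate intervals does not show that the levels are equal. *GABARAPL1* moved above *ULK1*, 8.85 against 3.76. The order depends on the length used, since the lengths implied by the deposited values were 7485 bases for *SQSTM1* and 1938 for *GABARAP*, against 2986 and 1634 in their principal transcripts. Per kilobase of principal transcript *GABARAPL2* ranked first in both libraries, at 49.0 CPM in DMSO and 61.9 in L1, and *GABARAPL1* and *ULK1* again ranked lowest of the 10 in DMSO. Ratios between the libraries do not depend on this length.

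**Figure D3:**
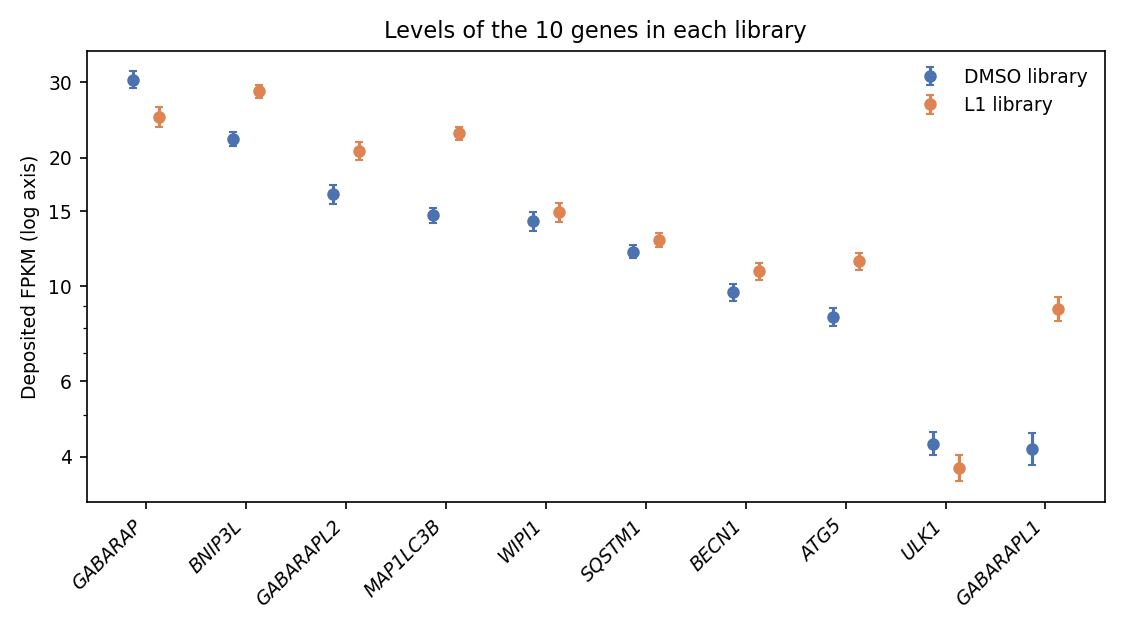
Deposited FPKM (log axis) of the 10 genes in the DMSO and the L1 library, ordered by the DMSO value, with 95% Poisson counting intervals. *GABARAPL1* is in the lowest pair under DMSO at 4.18 and stands at 8.85 under L1, while *GABARAP* stands at 30.4 and 24.9. The intervals of the libraries overlap for *WIPI1*, *SQSTM1* and *ULK1*, though the ratio intervals of *SQSTM1* and *ULK1* exclude 0 with TMM scaling.

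Beside the 10 genes, 74 further genes of the pathway were listed by role from general knowledge, and 70 of them had at least 10 counts. Their median log2 ratio was 0.074, with 44 above 0 and 26 below, and 5 of them were past 1.5-fold upward and 4 downward, or 7.14% and 5.71%. Over the 18123 genes at the same minimum, 8998 were above 0 and 9125 below, and the fold shares were 14.6% and 12.0%. Over the 12365 genes that reached 100 counts the fold shares were 7.48% and 8.31%, near those of the list genes. These are given as a description, since most genes of the pathway have far more counts than the minimum of 10. The 5 upward include *VPS33A*, whose ratio depends on an overlapping gene, as given below. The ATG8 list had the highest median of the 9 lists, 0.58 over 5 genes. This is the value of *MAP1LC3B2*, with 69 and 89 counts and an interval from 0.11 to 1.06. With at least 100 counts the ATG8 median was 0.49, and under log2(FPKM + 1) it was 0.34. All medians of the lists for membrane formation, conjugation, cargo and mitophagy genes lay between 0.058 and 0.14.

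The largest ratios of the pathway lay in the last step, fusion with the lysosome, where the median over 13 genes was 0.079, or -0.010 with overlapping genes on the same strand summed. *STX17*, the SNARE protein of the completed autophagosome, had 191 counts under DMSO against 834 under L1, a log2 ratio of 2.34 (95% interval 2.11 to 2.57), or FPKM of 0.67 and 3.41. The length behind its FPKM was 8853 bases, against 4740 exon bases in GENCODE release 29, so the gene model that was counted is not the one used here for overlaps. *YKT6*, another SNARE protein of this step, had 1011 counts under DMSO against 2409 under L1 (1.47, 1.36 to 1.57), and the lengths were likewise 7632 and 3707 bases. Their partners had lower ratios. *SNAP29* had 1742 and 1362 counts (-0.14) and *VAMP8* 2094 and 1794 (-0.010). *VPS33A*, named here after its value was seen, had a log2 ratio of 0.66, but a gene overlapping 1609 of its exon bases on the same strand went from 717 counts to 0, and the sum of both was 1865 in DMSO and 1566 in L1. The lowest gene of the list was *VPS11* at -0.21 (-0.30 to -0.13).

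Transcription factors that act on autophagy and lysosome genes also parted. *TFE3* had 731 counts under DMSO against 1188 under L1, a log2 ratio of 0.91 (95% interval 0.78 to 1.05), whereas *MITF* had 553 and 231 counts, a log2 ratio of -1.05 (-1.27 to -0.82). *TFEB* had only 92 counts under DMSO against 99 under L1, and its interval from -0.11 to 0.74 included 0. Of the rest of the list, *FOXO3* had 2638 and 2906 counts (0.35, 0.28 to 0.43) and *ZKSCAN3* 220 and 120 (-0.66, -0.99 to -0.33).

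**Figure D4:**
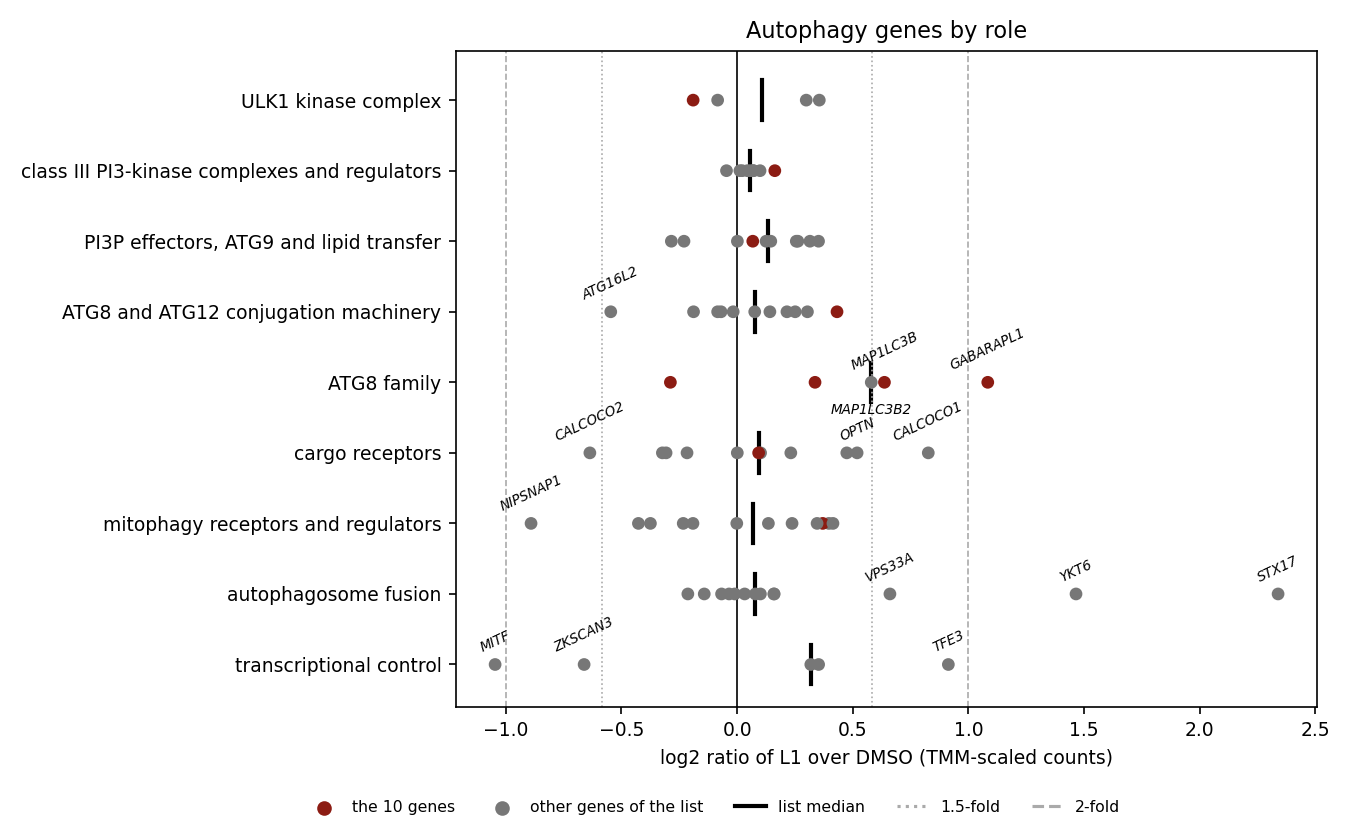
Each point is the log2 ratio of L1 over DMSO of 1 of 80 autophagy genes with at least 10 counts, by role, with the 10 genes in red, list medians as black bars and lines at 1.5-fold and 2-fold. Most genes lie within 1.5-fold, and *STX17* (2.34), *YKT6* (1.47) and *GABARAPL1* (1.08) lie past 2-fold on the right, with *MITF* (-1.05) on the left.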

How the data were processed

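The authors aligned the reads with HISAT2 (2.1.0), and fastp (2.0), StringTie and the hg38 build appear in the submitters' processing notes. The deposited table holds raw read counts per Ensembl gene, and the deposited FPKM values cover 13924 genes and give the same ratios as TMM-scaled counts for the 10 genes. The annotation, the counting program and its use of strand are not given in the sources used here. Clean paired-end reads came from libraries made with mRNA capture beads.

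Counts were scaled with TMM in edgeR 4.0.16 (R 4.3.3). DESeq2 1.42.0, upper quartile, total counts, FPKM, log2(FPKM + 1), prior counts of 2 and 5, a minimum of 100 counts, whole intervals past the fold and summed overlapping genes were alternatives. Sums over either strand, principal transcript lengths and the 6 pairs of related genes outside the ATG8 family were added after the values were seen. Python 3.11.15, numpy 2.4.6, pandas 2.3.3, scipy 1.17.1 and matplotlib 3.10.9 served for the rest, and the scripts were tested on simulated data.

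Positions, exon overlaps and shared 31-base words (either strand) came from GENCODE release 29, which holds 58254 of the 61806 identifiers, and sequences before the annotated start from RefSeq on GRCh38.p14. Besides the 10 genes, the text names the highest and the lowest gene of each of the 9 role lists with at least 100 counts, list genes past 2-fold with at least 100 counts, and genes that bear on these values, while further list genes were named after their values were seen. The genes and lists were chosen with earlier results of these data known.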

Additional observations from a re-analysis of the deposited data

How the results depend on the processing

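No paired analysis was possible because DMSO and L1 have 1 library apiece. With total counts, DESeq2 and upper quartile scaling and prior counts of 2 and 5, all 10 genes kept their direction and stayed within their counting interval. Each interval shifts with the scaling, however. The log2 ratio of *SQSTM1* was 0.062 with DESeq2, where its interval includes 0. That of *WIPI1* was 0.12 with total counts and 0.11 with upper quartile scaling, where its interval lies above 0. The deposited FPKM gave the same ratios as TMM-scaled counts and are no independent check. Under log2(FPKM + 1) *GABARAPL1* moved to 0.93, and 0 genes were then at least 2-fold higher. With the whole interval past the fold, 1 gene was past 1.5-fold upward and 0 past 2-fold. With overlapping genes on either strand summed, the ratio was -0.086 for the *SQSTM1* sum, 1.24 for the *BECN1* sum and 0.49 for the *MAP1LC3B* sum. The median of the 10 became 0.36, 2 of these sums were at least 2-fold higher, and the cargo receptor median was 0.0010. Most counts in the *SQSTM1* and *BECN1* sums were those of *MGAT4B* and *PSME3*, so these values are not ratios of the genes themselves. With at least 100 counts the median of the transcriptional control list moved to -0.15, since *TFEB* drops out. The other 88 values of the list medians stayed within the median of their genes' counting limits, though the fusion median changed sign, to -0.010, with overlapping genes on the same strand summed. The 1.5-fold difference of *MAP1LC3B* was lost with whole intervals. Its either-strand sum was under 1.5-fold, but this sum includes the counts of *FBXO31* and is not the ratio of *MAP1LC3B* itself. With either-strand sums the count of 2 was kept only by the *BECN1* sum, which is mostly *PSME3*. The share of all genes past the folds grew without a minimum count, to 24.0% higher and 19.8% lower at 1.5-fold and 18.1% higher and 13.9% lower at 2-fold. With 1 library per condition, variation between cultures and a difference due to treatment cannot be told apart.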

Other observations

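Related genes of the pathway often differed in ratio within the same 2 libraries, a comparison free of the scaling. These pairs were chosen after the values were seen and are given as values. *TFE3* exceeded *MITF* by 1.96 on the log2 scale (exact conditional 95% interval 1.70 to 2.22), and its FPKM was 2.33 times that of *MITF* in DMSO and 9.07 times in L1. *CALCOCO1* exceeded *CALCOCO2* by 1.46 (1.28 to 1.65), *ATG16L1* exceeded *ATG16L2* by 0.53 (0.35 to 0.71) and *NIPSNAP2* exceeded *NIPSNAP1* by 0.52 (0.23 to 0.81). *ATG16L2* shares 680 exon bases with *FCHSD2* on the opposite strand, which had a log2 ratio of -0.72, and *NIPSNAP1* shares 158 bases with *THOC5* on the same strand (-0.33). The sum of *ATG16L2* and *FCHSD2* had a log2 ratio of -0.67, against -0.55 for *ATG16L2* alone. The sum of *NIPSNAP1* and *THOC5* had one of -0.42, against -0.89 for *NIPSNAP1* alone. *FCHSD2* held 3105 of 4344 summed counts in DMSO and *THOC5* 1482 of 1856, so both sums mostly describe the overlapping gene.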
